A study of Mus musculus with 21 samples.

Results

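The insulin-like growth factor (IGF) genes examined were the 6 IGF-binding protein genes Igfbp2 to Igfbp7, the ligand gene Igf1, and the receptor genes Igf1r, Igf2r and Insr. These 10 genes were taken by name from a table of 22050 entries, and 9 of them, all but Igf1, reached an average of 1 or more over the samples and so were among the 12782 genes tested. Expression had been measured by mRNA-seq in GFP+ epidermal keratinocytes of the back skin. The 4 samples called p16 had the genotype K5-rtTA/tet-GFP/tet-p16, and the genotype of the 4 called control was K5-rtTA/tet-GFP. All mice, of mixed FVB, C57Bl and 129sv background, received doxycycline from an age of 3 weeks for 6 months. Cells with an active keratin 5 promoter could then make GFP in both groups and also human p16, an inhibitor of the cyclin D kinases, in the p16 group. The paper detected p16 protein in only a part of the epidermal cells. About 80000 cells from 3 mice were pooled in a sample, after immune, endothelial and fibroblast cells had been gated out by CD45, CD31 and CD140a. The labels list 13 samples of a second profiling, which were not analysed here.

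IGF1 and IGF2 act through the IGF1 receptor tyrosine kinase, and insulin through the closely related insulin receptor. Both receptors signal by IRS adaptors to the PI3K, Akt and mTOR enzymes and by the Ras and MAPK route. The IGF2 receptor has no kinase, takes up IGF2 for breakdown and carries mannose-6-phosphate-tagged enzymes to lysosomes. The IGF-binding proteins are secreted, hold IGFs with high affinity and, depending on proteases and matrix, keep them from the receptor or release them near it. In skin, dermal fibroblasts are a known source of IGF1 and keratinocytes carry its receptor, and several binding proteins are known among the factors that senescent cells secrete.

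Reads on genes ranged from 1760953 to 3414362 per sample, and 3 reads were taken as the floor of detection for each library, which covers counting error only. The human p16 transgene had values of 0.7 to 2.5 in the control samples and 10.1, 16 and 7.4 in replicates 2, 3 and 4 of the p16 group. A value of 1.6, inside the control range, was found in the library labelled p16 replicate 1. The fits of the 9 tested genes and the counts of calls were also computed without this library. With 42 reads over all p16 samples, the transgene was not called (limma adjusted p = 0.0952). EGFP, the reporter by which cells of both groups were sorted, averaged 5330 in control and 3555 in p16 samples. Its groups did not overlap, and it was called lower (limma adjusted p = 0.0167). The basal keratinocyte markers Krt5, Krt14 and 4 others were all tested, with 0 called by limma. Their summed value was 23438 to 40560 in control and 25299 to 28934 in p16 samples. Reads varied little for Krt5 (11761 to 12279) and Krt14 (10186 to 12146), although depth varied between libraries. The values of Krt5 and Krt14, which make up most of the sum, thus largely follow the size factor. They cannot show whether basal cells differed between the groups. Several markers of other compartments moved with the groups. Of 9 hair follicle bulge markers 7 were lower in p16 cells (limma adjusted p under 0.05), with a sum of 11832 to 15971 in control and 9057 to 9151 in p16 samples. Most of this sum was Krt15, whose highest control values, 13136 and 12322, were in replicates 2 and 4, the libraries with the fewest reads. The sum thus says little about the other bulge markers. Postn, also on this list, was higher on average (log2 fold change 0.73, limma adjusted p = 0.272). Of the follicle infundibulum and isthmus markers 4 of 7 were lower (sum 16422 to 24778 and 13287 to 16247), as were 4 of 6 of sebaceous gland (1557 to 1934 and 618.8 to 907.2) and 2 of 7 of melanocytes (133.5 to 522.3 and 48.4 to 142.9). Of 7 markers of differentiated keratinocytes 1 was higher and 2 lower. Of 6 mural and muscle markers 1 could be tested, as could 5 of 8 myeloid and Langerhans cell markers and 3 of 6 T cell markers, and 0 of these were called in limma (0, 1 and 1 at an unadjusted p under 0.05), with Des and Lyz2 at 0 in every sample. In bulk samples, fewer cells of a type and less RNA per cell cannot be told apart.

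Across the 12782 tested genes, limma with Benjamini-Hochberg adjustment called 1.24% higher and 2.61% lower in p16 cells. Of the 9 tested IGF genes, Igfbp4 and Igfbp6 were called lower and 0 were called higher. At an unadjusted limma p under 0.05, which 15.9% of all tested genes reached in either direction, 3 were lower (Igfbp4, Igfbp6 and Igf2r) and 2 higher (Igfbp5 and Igfbp7). In edgeR and in DESeq2 on the recovered reads, 0 were called higher as well. The values of the groups did not overlap for 2 of the 9, Igfbp5 and Igfbp6, against 9.83% of all tested genes. The log2 fold change was negative for 6 and positive for 3 of them, with a median of -0.17, beside -0.0027 over all tested genes. The counts are a description.

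**Figure D1:**
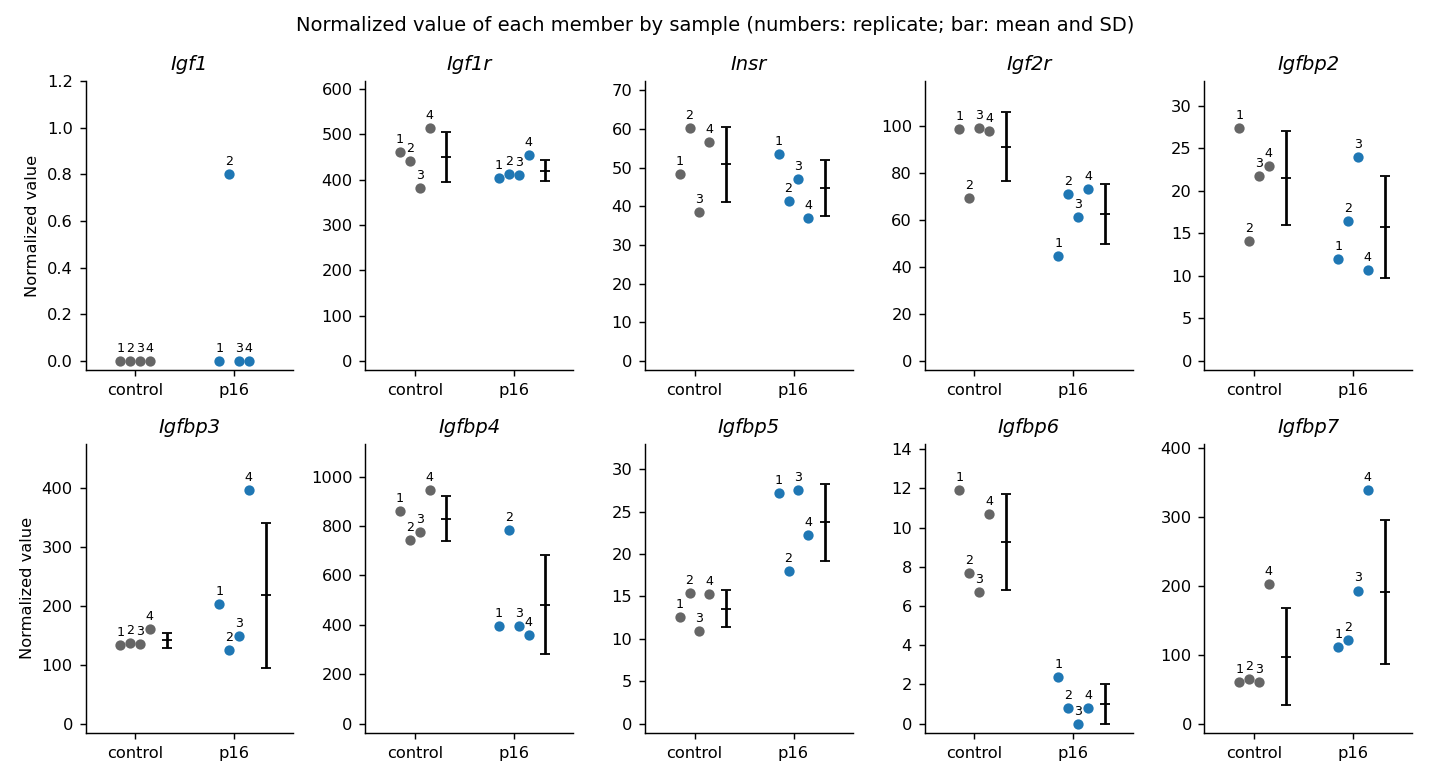
Normalized value (read count divided by a size factor) of each of the 10 genes in every sample, with the replicate number beside each point and the mean and SD of the 4 samples beside it, except for Igf1, which was not tested. Igfbp6 lay between 6.7 and 11.9 in control and between 0.0 and 2.4 in p16 samples, and Igfbp4 was low in 3 of the 4 p16 samples.

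**Figure D2:**
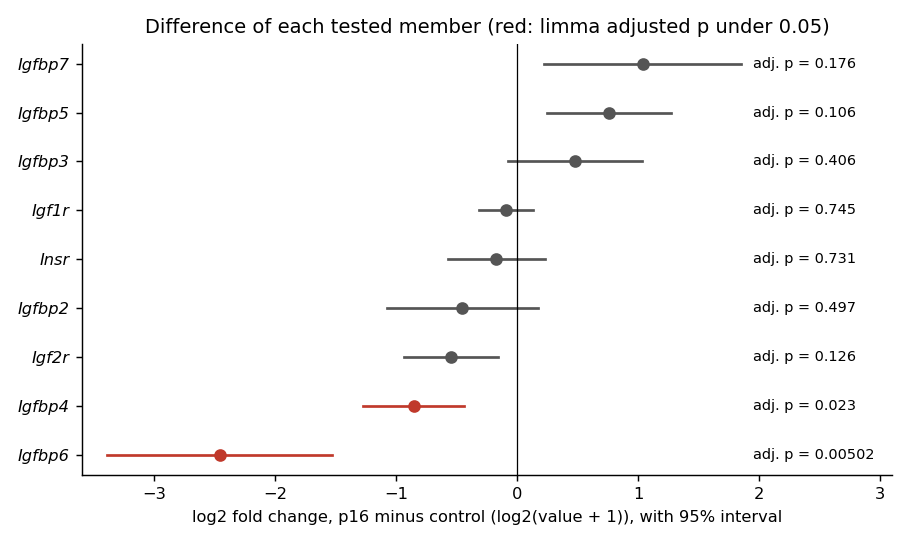
Log2 fold change (p16 minus control, on log2(value + 1)) of the 9 tested genes with its 95% interval from limma and its adjusted p. Igfbp6 and Igfbp4, in red, passed an adjusted p of 0.05, and the intervals of Igf1r and Insr spanned 0.

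The ligand was at the limit of detection. Igf1 had 0 reads in every control sample and a single read, a value of 0.8, in p16 replicate 2, so no fold was computed. Igf2, which encodes the other IGF, had 1 read in control replicate 4 and 6 reads in p16 replicate 4, and 0 in the other samples. The insulin genes Ins1 and Ins2 were at 0 in every sample. The transcripts of the factors that act on these receptors were not detectable, or nearly so, at this depth in either group.

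Both signalling receptors were detected in every sample, Insr from 37 to 67 reads per library, and the values of the groups overlapped for each. Igf1r, on chromosome 7 of GRCm38 from 67952827 to 68233668, was at 462.2, 441.5, 381.7 and 514.9 in control and at 403.0, 413.0, 411.4 and 453.9 in p16 samples, given here and below in the order of replicates 1 to 4. The p16 samples all fell inside the control range. Its log2 fold change, p16 against control, was -0.09 (standard error 0.10, limma adjusted p = 0.745), and the 95% interval of the p16 to control ratio ran from 0.805 to 1.09. Insr, on chromosome 8 from 3122061 to 3279617, had 48.2, 60.3, 38.4 and 56.5 in control and 53.6, 41.4, 47.0 and 37.0 in p16 samples. The groups overlapped almost completely. Its log2 fold change was -0.17 (standard error 0.19, limma adjusted p = 0.731), with a ratio between 0.672 and 1.17. Neither p shows that the receptors were expressed alike, and the intervals give the sizes of difference that the 8 samples allow.

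Igf2r, on chromosome 17 from 12682406 to 12769664, was lower on average without passing the adjusted threshold. Its values were 98.7, 69.3, 99.4 and 97.8 in control and 44.8, 71.0, 61.2 and 73.2 in p16 samples. Control replicate 2 lay among the p16 samples, and the other 3 controls lay above every p16 sample. The mean went from 91.3 ± 14.7 to 62.6 ± 12.9 (SD, n = 4 each), or -0.55 on the log2 scale (standard error 0.18, limma adjusted p = 0.126). An exact two-sided permutation test gave p = 0.0857, where 0.0286 is the smallest possible. Over the fits that left out 1 sample, the limma adjusted p ran from 0.0618 without control replicate 2 to 0.342 without the library labelled p16 replicate 1. The Airn gene overlaps the 5′ part of Igf2r on the opposite strand, away from the 3′ end, where reads of 3′ libraries fall. The ratio of the Igf1r to the Igf2r value was 5.04 ± 1.06 in control and 6.93 ± 1.42 in p16 samples (SD, n = 4 each), with overlapping ranges.

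The promoters of 3 binding protein genes are shown because Igfbp4 and Igfbp6 were the genes that fell and Igfbp7 had the largest mean rise. They are RefSeq windows on GRCm38.p6 from 250 bases before to 50 bases after the annotated start, which the table held for 9 of the 10 genes, all but Insr. Igfbp4 is at chr11:99040994-99041293 on the plus strand, Igfbp6 at chr15:102143936-102144235 on the plus strand and Igfbp7 at chr5:77407996-77408295 on the minus strand, all written in the direction of transcription. Capitals mark matches, on either strand, to the TATA box (TATAAA), the GC box (GGGCGG), the CCAAT box (CCAAT), the E box (CACGTG), the Tcf/Lef motif (CTTTGAT), the FoxO motif (GTAAACA) and the AP-1 motif (TGACTCA).
Igfbp4: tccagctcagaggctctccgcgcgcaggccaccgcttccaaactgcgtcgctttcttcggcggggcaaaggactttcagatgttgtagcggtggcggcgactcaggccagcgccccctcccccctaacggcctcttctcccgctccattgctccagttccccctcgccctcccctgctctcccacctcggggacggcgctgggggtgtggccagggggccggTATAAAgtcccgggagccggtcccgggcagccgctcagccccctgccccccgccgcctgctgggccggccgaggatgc
Igfbp6: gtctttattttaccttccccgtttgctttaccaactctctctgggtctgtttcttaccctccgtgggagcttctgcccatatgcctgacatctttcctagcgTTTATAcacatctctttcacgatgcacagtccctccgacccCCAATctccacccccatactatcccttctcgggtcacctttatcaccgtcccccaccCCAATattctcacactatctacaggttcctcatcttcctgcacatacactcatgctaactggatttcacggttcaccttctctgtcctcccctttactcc
Igfbp7: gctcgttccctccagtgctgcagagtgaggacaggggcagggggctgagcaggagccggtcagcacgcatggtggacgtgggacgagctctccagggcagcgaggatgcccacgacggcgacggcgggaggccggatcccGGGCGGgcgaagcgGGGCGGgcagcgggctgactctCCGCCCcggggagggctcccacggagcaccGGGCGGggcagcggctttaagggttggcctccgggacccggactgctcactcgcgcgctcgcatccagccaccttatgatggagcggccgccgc

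The Igfbp4 window held 1 TATA box match on the plus strand, 28 bases before the start, a motif found in 13.6% of all 32851 promoter windows. The Igfbp6 window held 2 CCAAT matches, at 107 and 50 bases before the start (37.4% of windows hold one), and a TATA box match on the other strand 148 bases before it. The RefSeq start of Igfbp6 used here lies upstream of the GENCODE start at 102144362. The Igfbp7 window held 4 GC box matches (35.7% of windows hold one) and none of the other motifs. Its GC content was 73.3%, that of Igfbp4 71.3% and that of Igfbp6 49.7%, beside a median of 52.7% over all windows. The E box and AP-1 motifs, in 7.15% and 5.20% of all windows, were in none of the 3 printed ones. The Tcf/Lef and FoxO motifs, held by 3.73% and 3.65% of windows, were in none of the 10 windows of the IGF genes, which says only that these letters are absent there.

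Igfbp4, which encodes a binding protein that the protease PAPP-A cleaves to release IGFs, lies on chromosome 11 from 99041244 to 99054392, behind the window with the TATA match. It had values of 859.8, 741.8, 774.2 and 944.2 in control and of 393.4, 783.1, 393.7 and 356.8 in p16 samples. Of the p16 samples, 3 lay far below every control and replicate 2 lay inside the control range. The mean fell from 830.0 ± 91.0 to 482 ± 202 (SD, n = 4 each), a 1.72-fold difference, which on the log2 scale was -0.86 (standard error 0.19, limma adjusted p = 0.0230). The exact two-sided permutation test of the values gave p = 0.0857. The call depended on single samples. The limma adjusted p was 5.94e-05 without p16 replicate 2 and stayed under 0.05 in 4 of the 8 fits that left out 1 sample. It was 0.0737 without control replicate 1, 0.0735 without control replicate 4, 0.0875 without the library labelled p16 replicate 1 and 0.0698 without p16 replicate 3. It was 0.122 with replicate 3 of both groups left out, the samples whose labels word the library protocol differently. The hair follicle bulge markers summed to 9151 in p16 replicate 2, the highest of the p16 samples, which spanned 9057 to 9151. Most of this sum was Krt15 (6757), so it says little about the other bulge markers. P16 replicate 2, with an Igfbp4 value at the control level, was also the highest p16 sample in 907.2 for sebaceous gland, below every control, and 142.9 for melanocytes, inside the control range. Its infundibulum and isthmus sum was 14115, below the 16247 of p16 replicate 3. The part of these markers in the differences of Igfbp4 and Igfbp6 was not tested.

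Igfbp6, whose product prefers IGF2 over IGF1, lies on chromosome 15 from 102144362 to 102149511 and had the largest fall among the IGF genes. It had values of 11.9, 7.7, 6.7 and 10.7 in control samples, from 16, 6, 8 and 7 reads. In p16 samples the values were 2.4, 0.8, 0.0 and 0.8, from 3, 1, 0 and 1 reads. All p16 values were below the lowest control value (p = 0.0286 in the exact permutation test, two-sided, its smallest possible value). Because no p16 sample had more than 3 reads, the difference is given as a bound, and Igfbp6 was at least 3.75-fold lower in p16 cells against a floor of 3 reads per library. The limma adjusted p was 0.00502, and it lay between 0.00462 and 0.0291 in all 8 fits that left out 1 sample, with 0.00462 when the library labelled p16 replicate 1 was left out, and was 0.0308 with replicate 3 of both groups left out. The gene was rare, with 37 reads over all control samples, and edgeR's filter on low counts left it out.

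Igfbp5, whose product also binds the extracellular matrix, lies on chromosome 1 from 72857932 to 72874884 and moved the other way. It had values of 12.6, 15.4, 10.9 and 15.3 in control and of 27.2, 18, 27.5 and 22.2 in p16 samples. The lowest p16 value exceeded the highest control value (p = 0.0286 in the exact permutation test). The mean was 13.6 ± 2.19 in control and 23.7 ± 4.53 in p16 cells (SD, n = 4 each), a difference of 0.76 on the log2 scale (standard error 0.24). At 0.106 the limma adjusted p missed the threshold, as it did in 18 other settings, where it ran from 0.0839 to 0.40. The neighbouring gene Igfbp2 (chromosome 1, 72824503 to 72852474) encodes a binding protein that can also contact integrins. It had 27.4, 14.1, 21.7 and 22.9 in control and 12, 16.4, 23.9 and 10.7 in p16 samples. The groups overlapped, and the log2 difference was -0.45 (standard error 0.29, limma adjusted p = 0.497).

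For Igfbp3 and Igfbp7, replicate 4 was the highest sample in each group. Igfbp3, which encodes the main carrier of IGFs in blood, lies on chromosome 11 from 7206086 to 7213923. It had 132.8, 137.3, 135.3 and 160.4 in control and 203.1, 124.9, 148.1 and 395.5 in p16 samples. The p16 values ranged from below the lowest control to more than any control, and the log2 difference of 0.47 (standard error 0.26, limma adjusted p = 0.406) did not pass. Igfbp7, on chromosome 5 from 77349240 to 77408041, encodes a secreted relative that binds IGFs only weakly. It had 60.8, 64.2, 61.0 and 203.2 in control and 111.1, 121.8, 193.3 and 338.8 in p16 samples.

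For Igfbp7 all p16 samples lay above control replicates 1 to 3, and control replicate 4 lay above 3 of the p16 samples. The mean was 97.3 ± 70.6 in control and 191 ± 105 in p16 cells (SD, n = 4 each), a difference of 1.04 on the log2 scale (standard error 0.38, limma adjusted p = 0.176). An exact two-sided permutation test gave p = 0.200. Limma with the replicate number as a block, given below, did call Igfbp7, but the numbers were not shown to pair the samples. Without control replicate 4 the log2 fold change was 1.46 and the limma adjusted p was 0.0192. With replicate 4 of both groups left out, a setting chosen after the values were seen, they were 1.14 and 0.00233. Igfbp7 is also abundant in endothelium, whose markers Cdh5, Kdr and Emcn were at 0 in every sample. The endothelial marker Pecam1 had 1.3 to 5.0 in control and 3.1 to 6.4 in p16 samples. The 7 endothelial markers summed to 5.2 to 16.7 in control and 7.1 to 12.4 in p16 samples. The part of endothelial or other cell types in the Igfbp7 values was not tested. The last 85 bases of Polr2b, on the opposite strand, overlap the 3′ end of Igfbp7, and whether counting used the strand is not given in the sources used here. Polr2b had 105.4 in control replicate 4 and 109.4 in p16 replicate 4, within the 94.3 to 133.5 of all samples.

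**Figure D3:**
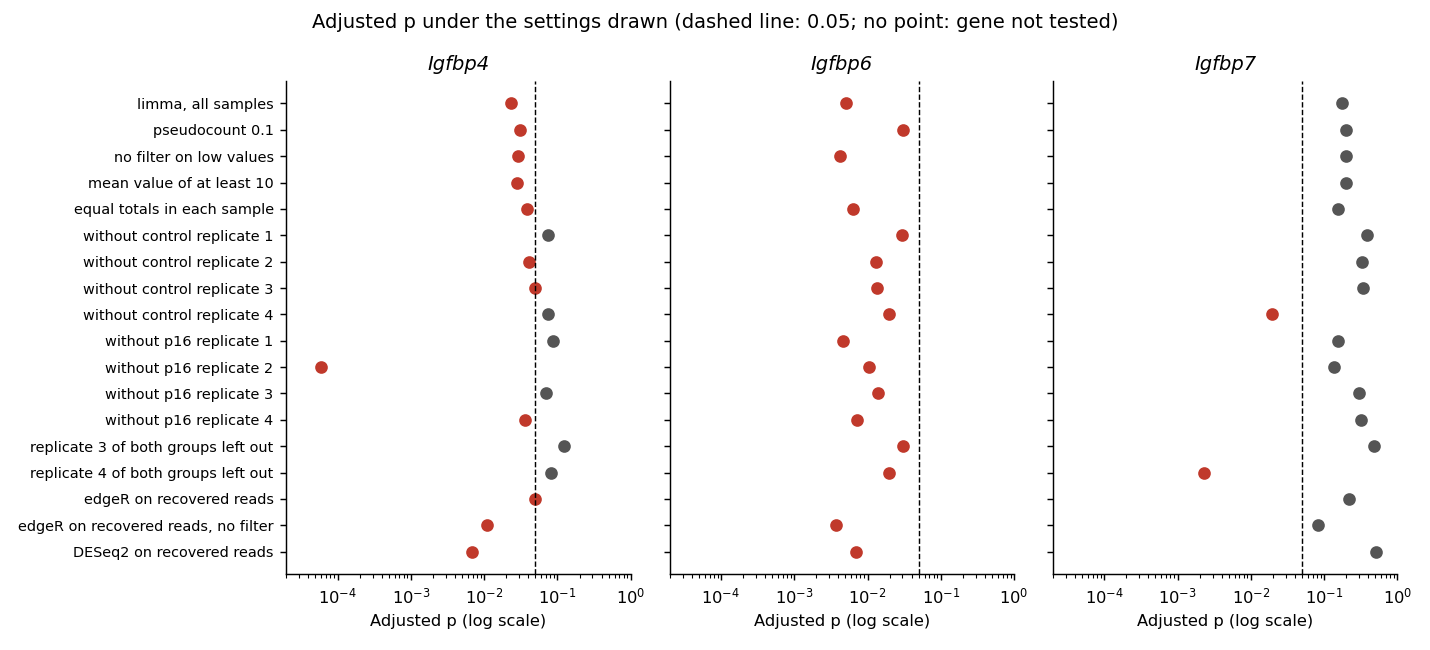
Adjusted p, on a log axis, of Igfbp4, Igfbp6 and Igfbp7 in limma with all samples and under the other settings drawn, with points in red below the dashed line at 0.05. Igfbp6 was below 0.05 wherever it was tested, Igfbp4 lay on both sides of the line, and of the settings drawn Igfbp7 was below it in the fits without control replicate 4. The fit with the replicate number as a block, in which Igfbp7 was also below 0.05, is not drawn.

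The normalized values of the 6 binding protein genes were also summed within each sample. The shares were compared between samples, and were not used to compare the abundance of one gene with that of another. The sum was 1105, 980.5, 1010 and 1357 in control and 749.2, 1065, 786.5 and 1125 in p16 samples, with overlap. Igfbp4 gave 77.8, 75.7, 76.7 and 69.6% of it in control and 52.5, 73.5, 50.1 and 31.7% in p16 samples. Its share was thus lower than in every control in p16 replicates 1, 3 and 4 and among the controls in replicate 2. Igfbp3 gave 11.8 to 14.0% in control samples and 27.1, 11.7, 18.8 and 35.2% in p16 samples. Igfbp7 gave 5.50, 6.55, 6.04 and 15.0% in control and 14.8, 11.4, 24.6 and 30.1% in p16 samples. The share of Igfbp5 was 1.08 to 1.57% in control and 1.69 to 3.63% in p16 samples, and that of Igfbp6 was 0.664 to 1.08% and 0.00 to 0.32%, both without overlap. These shares depend on each other and on the differences described above, and no test was made of them.

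**Figure D4:**
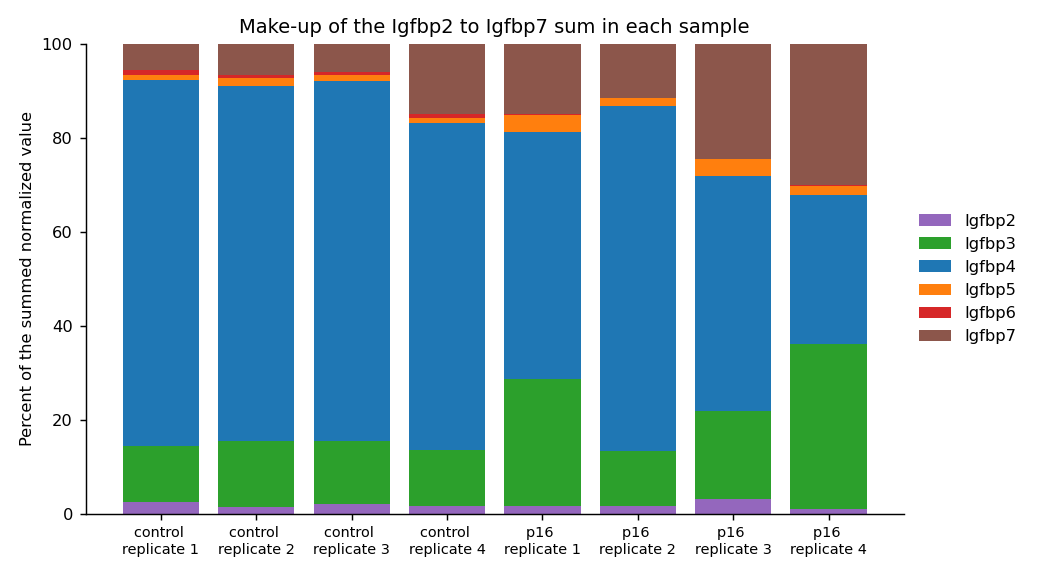
Percent of the summed normalized value of Igfbp2 to Igfbp7 that came from each gene, in each of the 8 samples. Igfbp4 made up 69.6 to 77.8% in control samples and 31.7 to 73.5% in p16 samples.

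The other genes of the pathway were taken from lists of 113 genes in 10 groups, of which 91 were tested. In limma, 2 were called higher (Dcn and Timp3) and 2 lower, Ctsd among them, beside 1.24% and 2.61% of all tested genes, and the median log2 fold change was 0.0044. At an unadjusted p under 0.05, 8 were higher and 10 lower. Among the 8 tested proteases of binding proteins and their inhibitors, 1 was called in each direction. Ctsd, the lysosomal protease cathepsin D, which can cleave binding proteins, had 733.7, 749.5, 1065.7 and 847.9 in control and 434.2, 531.7, 452.2 and 633.9 in p16 samples. Every p16 sample lay below every control, and the log2 difference was -0.73 (standard error 0.14, limma adjusted p = 0.00854, at most 0.0397 with 1 sample left out, and 0.0785 without replicate 3 of both groups). Timp3, a matrix-bound inhibitor of metalloproteases, had 646.1, 469.7, 323.2 and 759.3 in control and 1378.4, 980.6, 868.9 and 821.4 in p16 samples. Its groups did not overlap either, and they differed by 0.92 on the log2 scale (standard error 0.22, limma adjusted p = 0.0313). The call was lost without control replicate 2 or 3, without p16 replicate 2, without replicate 3 of both groups and in DESeq2, and the limma adjusted p was 0.113 once the library labelled p16 replicate 1 was left out. Pappa, the protease that cleaves the Igfbp4 product, had 22.9 in control and 21.0 in p16 cells on average, and the related gene Pappa2 was not tested.

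Among 7 tested receptors and receptor partners, 1 was called. Dcn encodes decorin, a matrix proteoglycan that can bind the IGF1 receptor. It had 5.9, 2.6, 4.2 and 10.7 in control and 85.6, 89.8, 203.0 and 36.2 in p16 samples, a difference of 3.82 on the log2 scale (standard error 0.44, limma adjusted p = 0.000233), and the call held in all 8 fits with a sample left out. Dcn is also on the list of fibroblast markers. The 10 fibroblast markers summed to 97.6 to 226.1 in control and 108.6 to 301.4 in p16 samples, Lum was at 0 in every sample, and of the 8 tested 1 (Dcn) was called higher and 2 (Vim and Fbln1) lower. Sorl1, a sorting receptor, had 193 in control and 244 in p16 cells (limma adjusted p = 0.145), and Kazald1, a gene related to the binding proteins, had 94.6 and 135 (limma adjusted p = 0.185).

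Of the 5 groups of signalling genes inside the cell, 4 are described here. In limma, 0 of 16 adaptor genes, 0 of 15 mTOR genes, 0 of 11 Ras and MAPK genes and 0 of 13 FoxO genes were called. At an unadjusted p under 0.05, which 15.9% of all tested genes reached, these groups had 3, 0, 1 and 2 lower genes and 0, 2, 0 and 1 higher genes.

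The nearest to the threshold were Sesn2, an inhibitor of mTOR under stress, with 142 in control and 210 in p16 cells (limma adjusted p = 0.0604), and Socs2, a feedback inhibitor of growth hormone signalling, with 15.1 and 5.53 (limma adjusted p = 0.153). Cdkn1b, a cell-cycle inhibitor under FoxO control, had 661 and 493 (limma adjusted p = 0.172), and Grb14, an inhibitory adaptor of the insulin receptor, had 19.8 and 9.18 (limma adjusted p = 0.196). The adaptor genes Irs1 and Irs2 had 73.0 and 177 in control and 78.5 and 139 in p16 cells.

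**Figure D5:**
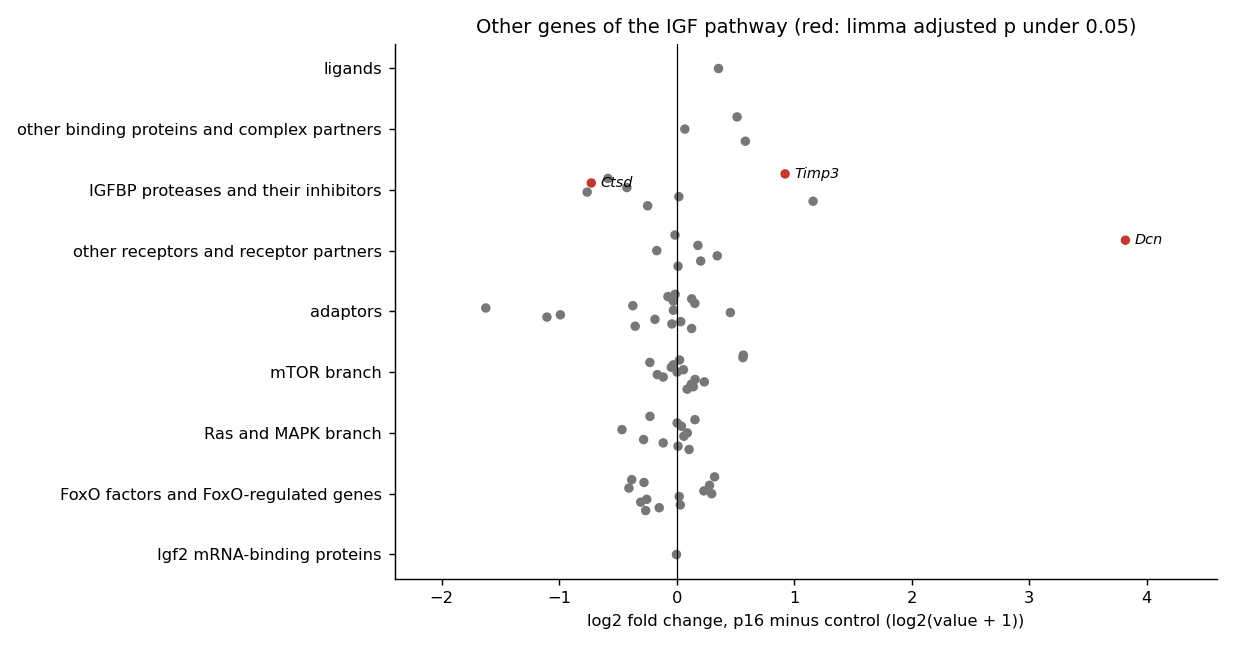
Log2 fold change (p16 minus control, on log2(value + 1)) of the other tested genes of the IGF pathway in 9 of the 10 groups, with called genes in red and named. Most points lie near 0, and the called genes drawn are Dcn (3.82), Timp3 (0.92) and Ctsd (-0.73).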

How the data were processed

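Libraries of 3′ ends had been made by the authors with a modified CEL-Seq2 method (for replicate 3 of each group the labels name an Illumina protocol), trimmed with Cutadapt and aligned to GRCm38 with TopHat2. The submitters' processing notes also name HTSeq and DESeq2. The deposited signal values are counts scaled by a size factor of the sample, with 1 decimal. Deposited columns with the authors' own fold change, statistic and p-value were not used.

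All values (100%) were whole multiples of 1 read, worth 0.742 to 1.53, within 0.05, so reads were recovered. Samples were grouped by title. For genes averaging 1 or more, the groups were compared by limma 3.58.1 (moderated by eBayes with a trend, in R 4.3.3) on log2(value + 1), which understates changes of low genes, with Benjamini-Hochberg adjustment over 12782 genes. Alternatives were a pseudocount of 0.1, other filters, equal totals, samples left out, a replicate block, and edgeR 4.0.16 and DESeq2 1.42.0 on recovered reads. Samples pool 3 mice each, and no pair was a duplicate. The fits were tested on simulated data.

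The members and gene lists were chosen with earlier results of these data known. By rule the text names all members, called pathway genes and the 5 with the smallest p in each direction, of which 1, with its group, is not reported here; Irs1, Irs2, Pappa, Pappa2, Igf2, Ins1, Ins2 and Polr2b were chosen after their values were seen. Coordinates come from GENCODE M21.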

Additional observations from a re-analysis of the deposited data

Results flagged for a closer look

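Of 42 sets of 4 values, 7 had a sample that stood apart from the other 3 by more than Dixon's 95% limit, which chance passes in about 1 of 20 sets. Control replicate 4 was high for Igfbp7, with a value of 203.2, for the share of Igfbp7 in the binding protein sum, with 15.0%, and for Igfbp3, with 160.4. Control replicate 2 was low for Igf2r, with 69.3, and high for the share of Igfbp5, with 1.57%. P16 replicate 2 was high for Igfbp4, with 783.1, and for Igf1, with 0.8, the value of a single read.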

How the results depend on the processing

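In limma 159 genes were higher and 334 lower, with 69 to 196 and 177 to 343 when 1 sample was left out. They were 86 and 177 without control replicate 1, 69 and 192 without the library labelled p16 replicate 1, with 99 higher without p16 replicate 3, 66 and 157 without replicate 3 of either group, and 897 and 1141 at an unadjusted p. Of the 9 tested IGF genes 2 were called lower, with 1 to 2 when 1 sample was left out. This count was 1 with a mean of at least 10 required, which removed Igfbp6, 1 in edgeR with its filter, which did the same, and 1 when replicate 3 or replicate 4 was dropped from both groups, where Igfbp4 had a limma adjusted p of 0.122 and 0.0806. The count called higher was 0, with 0 to 1 when 1 sample was left out, where the 1 was Igfbp7 without control replicate 4, 1 when replicate 4 of both groups was dropped, and 2 at an unadjusted p. Of the pathway genes 2 were called in each direction, with 1 to 3 in each when 1 sample was left out. The count higher was 1 when replicate 3 was dropped from both groups, 4 when replicate 4 was, and 8 at an unadjusted p. The count lower was 1 with a pseudocount of 0.1, a mean of at least 10, equal totals, edgeR with its filter, or DESeq2, it was 0 in limma with replicate 3 of both groups left out, and 10 at an unadjusted p. For these counts the cause was not tested beyond the removal of Igfbp6. No member changed direction under any setting run.

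With the replicate number as a block, the IGF genes called higher became 1, Igfbp7 (limma adjusted p = 0.00156), and the pathway genes called lower became 4, while Igfbp4 and Igfbp6 were also called. The numbers were not shown to pair the samples, since the deviations of same-numbered samples correlated at 0.106, 0.0215, 0.0644 and 0.178 over 10431 genes. Control replicates 1, 3 and 4 each correlated best with the p16 sample of the same number. For replicates 1 and 3 another p16 sample was close, at 0.0968 and 0.0566. Control replicate 2 correlated best, at 0.131, with p16 replicate 1. The paper states that the groups were siblings treated together, and it reports fewer independent experiments than replicates per group. Which samples shared an experiment is not given, so a block by experiment was not tested. At this depth a difference in Igf1 or Igf2 was not detectable.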

Other observations

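The genes whose values varied most like those of the called members, after the mean of each group had been subtracted, were searched among the 10431 genes that averaged 10 or more. For Igfbp4 these were Usp3, Akirin2 and Ttk, with Pearson correlations of 0.977, 0.976 and 0.955 over the 8 samples. For Igfbp6 they were H2-Q6, Hnrnph3 and Cnst, with 0.959, 0.956 and 0.944, where the p16 values of Igfbp6 rest on 0 to 3 reads each. None of these 6 genes was called in limma, and their adjusted p ran from 0.229 to 0.905. The points share library and depth, and the correlations are a description.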
